A study of Canis lupus familiaris with 23 samples.

Results

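Of the 15716 genes tested in canine oral tissue, 8 were displaced from healthy gingiva in opposite directions by the 2 tumors studied, canine acanthomatous ameloblastoma (CAA) and canine oral squamous cell carcinoma (COSCC). They were chosen by their fold changes and p-values in these same libraries: each passed an edgeR adjusted p under 0.05 in CAA against gingiva and in COSCC against gingiva with fold changes of opposite sign. They make up 0.0509% of the genes tested, and the table as a whole holds 30951. In 6 of the 8 (0.0382% of genes tested) CAA lay above and COSCC below gingiva, and in the other 2 (0.0127%) the order was turned. At any p, 26.7% of the genes tested had fold changes of opposite sign in the tumors. A further 2315 genes passed both thresholds in the same direction. The gene table carries Ensembl identifiers, of which 0 matched an entry of the RefSeq gene table used for names, so each gene is given by its identifier, with no symbol, function, position or sequence.

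CAA is a tumor of odontogenic epithelium, the tissue that forms teeth. It grows into the jaw bone but is not known to spread to distant organs. COSCC arises from the stratified squamous epithelium that covers the gums and mouth, invades locally and can spread. Gingiva, the tissue compared with both, is squamous epithelium on a bed of collagen-rich connective tissue, so a bulk library of any of the 3 tissues sums epithelium, stroma, vessels and immune cells. In such libraries fewer cells of a type and less RNA per cell cannot be told apart.

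RNA was sequenced from 5 CAA, 11 COSCC and 7 gingiva samples of dogs of several breeds and mixed ancestry, each with its own library name and taken here as a separate dog. Breeds were not balanced between groups. The CAA came from an Australian Shepherd, a Boxer, a Great Dane and Labrador Retrievers, and mixed ancestry was given only among COSCC and gingiva. An effect of breed was not tested. No treatment or age is given in the labels. Of the CAA, 3 were maxillary and 2 mandibular, of the COSCC 7 were maxillary and 4 mandibular, and for all gingiva samples but 1 the jaw was undetermined. The labels do not say how tumor content was checked, and edgeR p-values set differences against the spread between these libraries within groups. Totals ran from 15120326 to 16813220 counts per library. Levels are CPM, the counts of a gene relative to the library's total over the genes tested, scaled by TMM (trimmed mean of M values). The mean TMM factor was 0.887 for gingiva, 1.03 for COSCC and 1.15 for CAA. Without molecular identifiers, reads can be copies of a molecule, and limits drawn from counts cover counting error alone. CPM is not divided by gene length, so levels are compared between groups and never between genes.

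The fold changes against gingiva chose the genes and are therefore a description, with no test attached. All 8 passed in CAA against gingiva, where 24.6% of the genes tested did (13.8% higher, 10.8% lower). All 8 passed in COSCC against gingiva, against 33.7% of all genes (20.1% higher, 13.5% lower). Both sets of fold changes use the same gingiva libraries, and their opposite signs also fix the direction of the difference between the tumors, in which all 8 passed and 8.72% of all genes did (4.09% higher and 4.63% lower in CAA). Just inside the rule were ENSCAFG00000000297 and ENSCAFG00000045512, whose larger edgeR adjusted p of the 2 contrasts was 0.0490 and 0.0393. Just outside it were ENSCAFG00000012390 (0.0501) and ENSCAFG00000016582 (0.0520), both with CAA above and COSCC below gingiva. ENSCAFG00000012390 had log2 fold changes of 0.85 in CAA and -0.60 in COSCC, and ENSCAFG00000016582 had 0.54 and -0.39.

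**Figure D1:**
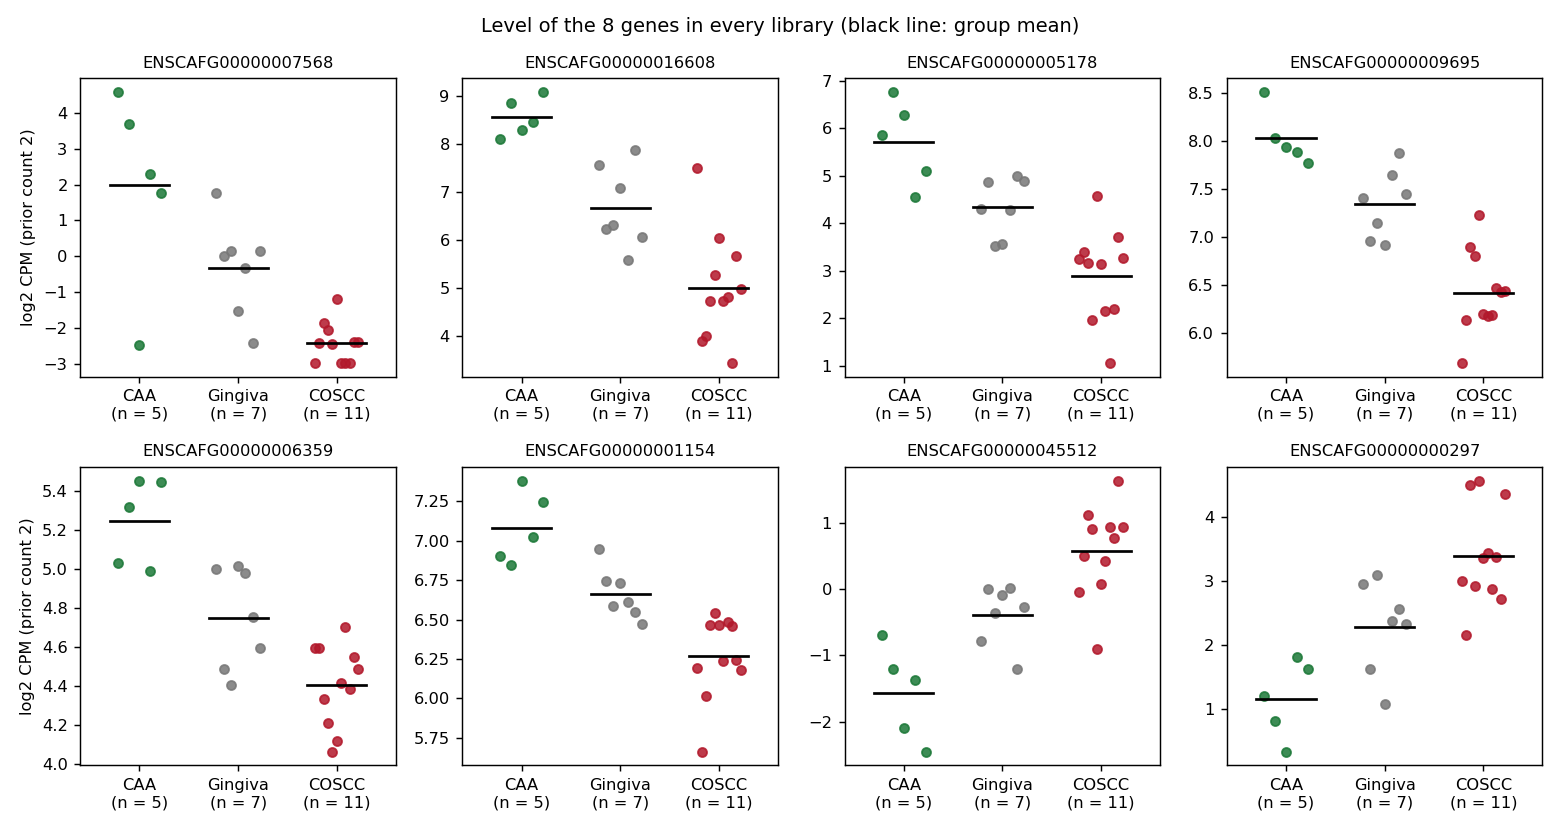
Level of each of the 8 genes, as log2 CPM with a prior count of 2, in every CAA (green, n = 5), gingiva (grey, n = 7) and COSCC (red, n = 11) library, with points in replicate order and a black line at the group mean. Each panel has its own vertical scale. In the first 6 panels the group means step down from CAA to gingiva to COSCC and in the last 2 they step up. The ranges of COSCC and gingiva overlap in every panel, and those of CAA and gingiva in all panels but that of ENSCAFG00000016608.

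Among the 6 genes with CAA on top, ENSCAFG00000016608 was the clearest in CAA. Its CAA levels were 275, 456, 309.5, 349 and 538 CPM in replicates 1 to 5. In gingiva it ran from 48.2 to 232 CPM with a median of 79.3, and in COSCC from 10.8 to 181 CPM with a median of 28.1. Every CAA library was thus above every gingiva library, which among the 8 genes held for this gene only and held for 8.94% of all genes tested. Group means were 386 ± 109 CPM in CAA (SD, n = 5), 118 ± 69.8 in gingiva (SD, n = 7) and 44.5 ± 47.9 in COSCC (SD, n = 11). The edgeR log2 fold change against gingiva was 1.71 ± 0.55 (SE) in CAA and -1.41 ± 0.45 (SE) in COSCC. The carcinomas were uneven, the highest level being 16.8 times the lowest. COSCC replicate 1 held 181 CPM, a level inside the gingiva range, and the next carcinoma, replicate 6, held 65.9. Without COSCC replicate 1 the log2 fold change in COSCC was -1.93.

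ENSCAFG00000005178 showed a similar step with wide groups. Its CAA levels were 58.0, 108, 77.8, 23.3 and 33.9 CPM in replicates 1 to 5, its gingiva levels 11.4 to 31.9 CPM (median 19.6) and its COSCC levels 1.95 to 23.7 CPM (median 8.87). CAA replicate 4 lay inside the gingiva range, as did COSCC replicates 5 and 10. COSCC replicate 5, at 23.7 CPM, exceeded the lowest CAA library and was the only carcinoma to do so. Means were 60.3 ± 34.2 CPM in CAA (SD, n = 5), 21.8 ± 8.49 in gingiva (SD, n = 7) and 8.92 ± 5.94 in COSCC (SD, n = 11). Log2 fold changes were 1.47 ± 0.46 (SE) in CAA and -1.29 ± 0.38 (SE) in COSCC.

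ENSCAFG00000009695 had the most carcinomas below the gingiva range, though not the most gingiva libraries above the carcinoma range. In COSCC it ran from 51.4 to 150.2 CPM with a median of 86.1, and in gingiva from 121 to 234 CPM with a median of 169. In 10 of 11 carcinomas it was below every gingiva library, COSCC replicate 5 being the exception, and 4 of 7 gingiva libraries were above every carcinoma (6 of 7 in ENSCAFG00000001154). CAA levels were 364, 261, 244, 236 and 218 CPM in replicates 1 to 5, and only the last lay inside the gingiva range. Mean levels were 265 ± 57.5 CPM in CAA (SD, n = 5), 166 ± 41.5 in gingiva (SD, n = 7) and 89.2 ± 27.7 in COSCC (SD, n = 11), with log2 fold changes of 0.67 ± 0.22 (SE) in CAA and -0.90 ± 0.18 (SE) in COSCC.

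The displacements of ENSCAFG00000006359 and ENSCAFG00000001154 were small and their groups narrow. ENSCAFG00000006359 was at 32.5, 39.7, 43.6, 31.6 and 43.5 CPM in CAA replicates 1 to 5, at 21.1 to 32.2 CPM in gingiva (median 26.9) and at 16.6 to 25.9 CPM in COSCC (median 21.3). Of the 11 carcinomas, 6 lay inside the gingiva range. Mean CAA was 1.41 times mean gingiva, and mean gingiva 1.27 times mean COSCC. The log2 fold changes were 0.49 ± 0.15 (SE) in CAA and -0.35 ± 0.12 (SE) in COSCC.

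ENSCAFG00000001154 was at 119.6, 115, 167, 130.1 and 152 CPM in CAA replicates 1 to 5, at 88.8 to 123 CPM in gingiva (median 97.7) and at 50.5 to 93.1 CPM in COSCC (median 75.6). CAA replicates 1 and 2 lay inside the gingiva range, and 2 of the 11 carcinomas did. Its mean in CAA was 1.34 times that in gingiva, which was in turn 1.30 times that in COSCC, and the log2 fold changes were 0.42 ± 0.15 (SE) and -0.38 ± 0.12 (SE). In neither of these genes did a CAA library overlap with a carcinoma.

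ENSCAFG00000007568 had the largest fold changes of the 8, and they rest on few counts. In CAA replicates 1 to 5 it had 436, 252, 1, 74 and 59 counts, or 23.8, 12.9, 0.0540, 4.82 and 3.29 CPM. Gingiva libraries had 1 to 50 counts (0.0616 to 3.27 CPM, median 0.871). Of the 11 carcinomas, 10 had at most 3 counts, 4 of these had none, and all 11 together had 14. A count of 0 in those 4 libraries allows a level of up to 3 counts, which is 0.169 to 0.234 CPM there. CAA replicate 3, with its single count, could not be ranked against gingiva replicates 4 and 6, which had 3 and 1, or against the carcinomas. The other 4 CAA libraries were above every gingiva library, CAA replicate 5 by little (3.29 against 3.27 CPM). The edgeR log2 fold changes were 3.14 ± 0.89 (SE) in CAA and -3.59 ± 0.82 (SE) in COSCC. They depend on single libraries and, at so few counts, also on the prior count used in the fit, which was not varied. Without CAA replicate 1 the log2 fold change in CAA was 2.37 and no longer passed (edgeR adjusted p = 0.0643). Without gingiva replicate 1 it was 3.82 in CAA and -2.91 in COSCC, and passed in both (edgeR adjusted p = 0.00761 and 0.0123). With limma voom the gene did not pass in COSCC against gingiva (adjusted p = 0.173).

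The other 2 genes ran the opposite way, with COSCC on top. ENSCAFG00000000297 was at 2.19, 1.64, 1.13, 3.39 and 2.95 CPM in CAA replicates 1 to 5, at 1.99 to 8.37 CPM in gingiva (median 5.08) and at 4.34 to 23.6 CPM in COSCC (median 10.1). CAA and gingiva overlapped, with 3 CAA libraries inside the gingiva range, but no CAA library reached the lowest carcinoma. COSCC replicates 5, 3 and 11 stood highest at 23.6, 22.5 and 20.4 CPM, and the remaining carcinomas did not exceed 10.7. Means were 2.26 ± 0.924 CPM in CAA (SD, n = 5), 5.24 ± 2.29 in gingiva (SD, n = 7) and 11.9 ± 6.88 in COSCC (SD, n = 11). The log2 fold change was -1.21 ± 0.44 (SE) in CAA and 1.18 ± 0.37 (SE) in COSCC.

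ENSCAFG00000045512 was a low-count gene throughout. It had 9, 6, 2, 4 and 1 counts in CAA replicates 1 to 5, 5 to 12 counts in gingiva and 7 to 47 in COSCC. The CAA levels were 0.492, 0.307, 0.108, 0.261 and 0.0557 CPM, the gingiva levels 0.308 to 0.884 CPM (median 0.707) and the COSCC levels 0.406 to 2.99 CPM (median 1.59). Of the carcinomas, COSCC replicate 5 alone fell inside the CAA range, and the next lowest, replicate 1, was at 0.846 CPM. Mean COSCC was 2.26 times mean gingiva, which was 2.74 times mean CAA, and the log2 fold changes were 1.17 ± 0.39 (SE) in COSCC and -1.42 ± 0.49 (SE) in CAA.

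**Figure D2:**
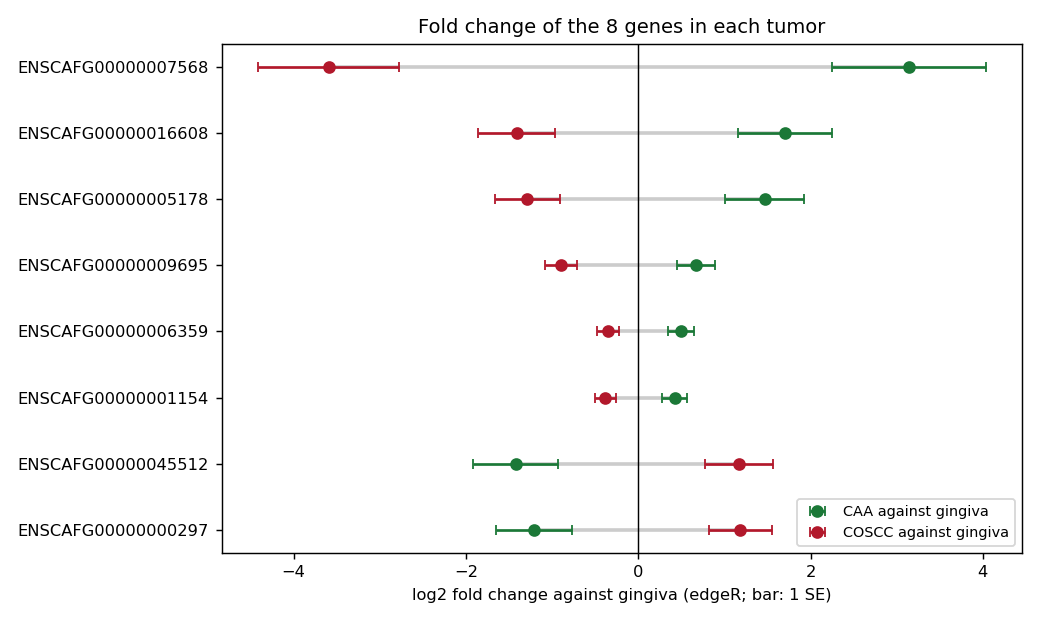
The edgeR log2 fold change against gingiva of each of the 8 genes in CAA (green) and COSCC (red), with bars of 1 SE and a grey line joining the pair. The pairs lie on either side of 0 at distances from 0.42 and -0.38 in ENSCAFG00000001154 to 3.14 and -3.59 in ENSCAFG00000007568.

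The 3 groups were next compared by the ranges of their libraries. CAA and COSCC did not overlap in 5 of the 8 genes (ENSCAFG00000000297, ENSCAFG00000001154, ENSCAFG00000006359, ENSCAFG00000009695 and ENSCAFG00000016608), against 1.11% of all genes tested (0.77% with CAA higher, 0.337% with CAA lower). CAA and gingiva did not overlap in 1 of the 8, against 15.5% of all genes (8.94% higher, 6.59% lower). COSCC and gingiva did not overlap in 0 of the 8, against 2.69% of all genes (1.15% higher, 1.55% lower). Since the rule used these libraries, the counts describe the genes and are not evidence. Read by library, 4 of the 5 CAA had all 8 genes on the CAA side of the gingiva mean and CAA replicate 3 had 7. Of the 11 COSCC, 8 had all 8 genes on the other side, replicates 1 and 2 had 7 and replicate 5 had 6. Gingiva libraries had from 1 to 6 of the 8 on the CAA side.

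**Figure D3:**
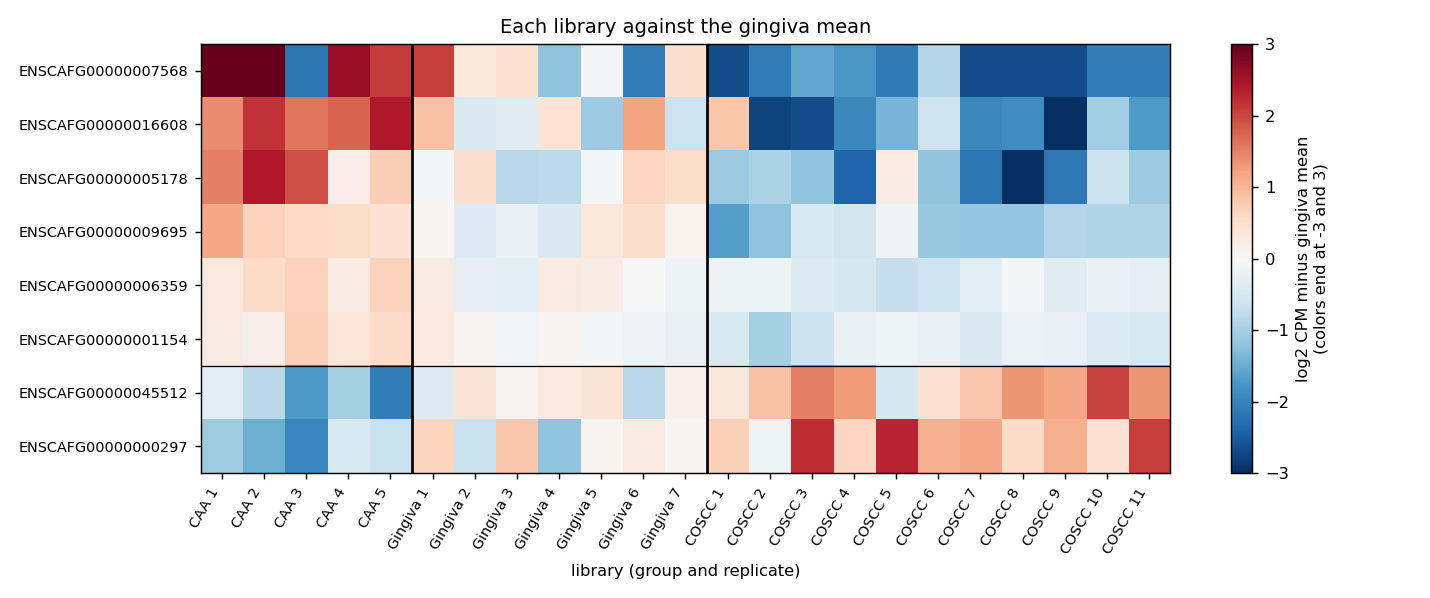
Log2 CPM (prior count 2) of the 8 genes in each of the 23 libraries minus the mean of the 7 gingiva libraries, red above and blue below it, with colors ending at -3 and 3. Exceptions to the pattern show as single cells, such as ENSCAFG00000007568 in CAA replicate 3, ENSCAFG00000016608 in COSCC replicate 1, and ENSCAFG00000005178 and ENSCAFG00000045512 in COSCC replicate 5.

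The spread among carcinomas differed widely between the 8 genes. The SD of log2 CPM among the 11 COSCC was 0.21 in ENSCAFG00000006359 and 0.26 in ENSCAFG00000001154, and only 1.46% and 5.03% of the genes tested had a smaller SD. At the other end it was 0.97 in ENSCAFG00000005178 and 1.12 in ENSCAFG00000016608, with 69.9% and 76.9% of genes below them. The median SD of the 8 in COSCC was 0.63, against 0.66 for all genes tested. In gingiva it was 0.53 against 0.48, and in CAA 0.50 against 0.44. COSCC was the group with the largest SD in 5 of the 8 genes, as it was for 65.8% of all genes. A narrow spread helped a gene to pass the rule, so these values are given without a test.

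A single carcinoma stood at the edge of its group in most of the 8 genes. COSCC replicate 5, a mandibular tumor, was the highest carcinoma in ENSCAFG00000000297, ENSCAFG00000001154, ENSCAFG00000005178 and ENSCAFG00000009695 and the lowest in ENSCAFG00000006359 and ENSCAFG00000045512. It was thus the highest or lowest COSCC in 6 of the 8, and was so in 17.2% of all genes tested. Its position was not uniformly towards CAA. In ENSCAFG00000001154, ENSCAFG00000005178, ENSCAFG00000009695 and ENSCAFG00000045512 it was the carcinoma closest to CAA, and in ENSCAFG00000000297 and ENSCAFG00000006359 the farthest from it. This library was singled out after its values were seen. Without it all 8 fold changes in COSCC kept their sign, and ENSCAFG00000006359 no longer passed in COSCC against gingiva (edgeR adjusted p = 0.0522).

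Labrador Retrievers, the only breed with 2 libraries in each group, gave the order within a single breed. The mean of 2 libraries followed the order of the full groups in 8 of the 8 genes, and in 5 the libraries of the 3 tissues did not overlap. ENSCAFG00000007568 is among these 5 by CPM alone. Its gingiva replicate 4 had 3 counts and COSCC replicates 8 and 11 had 0 and 1, too few to rank. Of all genes tested, 39.6% had their Labrador gingiva mean between those of the tumors, and 13.6% did so with no overlap. For ENSCAFG00000016608 the Labrador levels were 456 and 538 CPM in CAA, 136 and 66.5 in gingiva and 28.1 and 31.4 in COSCC. For ENSCAFG00000045512 they were 0.307 and 0.0557 CPM in CAA, 0.812 and 0.707 in gingiva, and 1.80 in each COSCC. These libraries also entered the rule, and with 2 per group no test was made.

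The jaw of origin played no part in the choice of the genes, so mandibular and maxillary COSCC were tested within the carcinomas, 4 against 7 libraries. ENSCAFG00000007568 was too low to be tested there. Of the other 7 genes, 0 had an edgeR adjusted p under 0.05, as had 0% of the 14958 genes tested, 1 had an unadjusted p under 0.05 (13.1% of all genes), and DESeq2 also gave 0 of 7 while calling 399 of all genes. The gene with the unadjusted p was ENSCAFG00000009695. It was at 70.3 to 150.2 CPM in mandibular and 51.4 to 88.4 CPM in maxillary carcinomas, which is 0.57 ± 0.22 higher in the mandible on the log2 scale (SE, edgeR p = 0.0229, adjusted 0.327). The ranges overlapped, and a share of 1 in 7 genes is close to that over all genes. ENSCAFG00000016608 was at 14.8 to 38.4 CPM in mandibular and 10.8 to 181 CPM in maxillary carcinomas, with mandible minus maxilla at -1.23 ± 0.66 on the log2 scale (SE, edgeR adjusted p = 0.441). Without COSCC replicate 1, a maxillary tumor left out after its values were seen, the highest maxillary level was 65.9 CPM, the maxillary mean went from 56.2 to 35.5 CPM against 23.9 CPM in the mandible, and the log2 difference was -0.56 ± 0.46 (SE, edgeR adjusted p = 0.548).

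Each sample is also marked FS or MC in the labels, a code that is not explained there and that the rule did not use. With the group in the model and all 23 libraries, 0 of the 8 genes had an edgeR adjusted p under 0.05 for the code, as had 0% of all genes, 1 had an unadjusted p under 0.05 (5.06% of all genes), and DESeq2 gave 0 of 8 and 2 of all genes. The smallest unadjusted p was again that of ENSCAFG00000009695, whose FS minus MC difference was -0.38 ± 0.15 on the log2 scale (SE, edgeR p = 0.0168, adjusted 0.816). All 4 mandibular carcinomas carried MC and 6 of the 7 maxillary ones FS, so jaw and code largely coincide in COSCC. With the code as a covariate in the comparison of jaws, the mandible minus maxilla difference was 0.39 ± 0.42 in ENSCAFG00000009695 (SE, unadjusted edgeR p = 0.379) and -1.08 ± 1.09 in ENSCAFG00000016608 (SE, unadjusted edgeR p = 0.346), both on the log2 scale, so that 0 of the 7 genes tested kept an unadjusted p under 0.05.

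Whether the 8 genes moved together within a tissue was examined next. The size of each gene's spread within groups entered the rule, but whether genes deviate together within a group did not. Over the 11 COSCC, 28 pairs gave Pearson r from -0.66 to 0.62 with a median of -0.01, and 13 of the 28 were positive. After Benjamini-Hochberg adjustment over the 28 pairs, 0 passed 0.05 in two-sided permutation tests of r or of Spearman's rho, and 3 had an unadjusted p of r under 0.05. The 16 pairs of genes displaced the same way had a median r of 0.01, with 8 of 16 positive. The 12 pairs of genes displaced opposite ways had a median r of -0.04, with 5 of 12 positive. With 11 libraries, no joint variation of the 8 genes from carcinoma to carcinoma passed the test.

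The strongest relation in COSCC ran between 2 genes that are both low in this tumor. ENSCAFG00000006359 and ENSCAFG00000009695 had r = -0.66 (permutation p = 0.0243, adjusted 0.420) and rho = -0.74 (permutation p = 0.0126, adjusted 0.353). Without the 2 libraries farthest from the median of ENSCAFG00000006359, COSCC replicates 5 and 6, r was -0.75. ENSCAFG00000000297 and ENSCAFG00000009695, displaced opposite ways, had r = 0.62 (permutation p = 0.0411, adjusted 0.420) and rho = 0.59 (permutation p = 0.0609, adjusted 0.568). Their r fell to 0.42 without COSCC replicates 2 and 5. The third pair, ENSCAFG00000006359 and ENSCAFG00000007568, had r = -0.61 (permutation p = 0.0450, adjusted 0.420) and rho = -0.52 (permutation p = 0.102, adjusted 0.713), on the 0 to 5 counts that the latter gene has in a carcinoma. Without COSCC replicates 5 and 6 its r was -0.53.

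**Figure D4:**
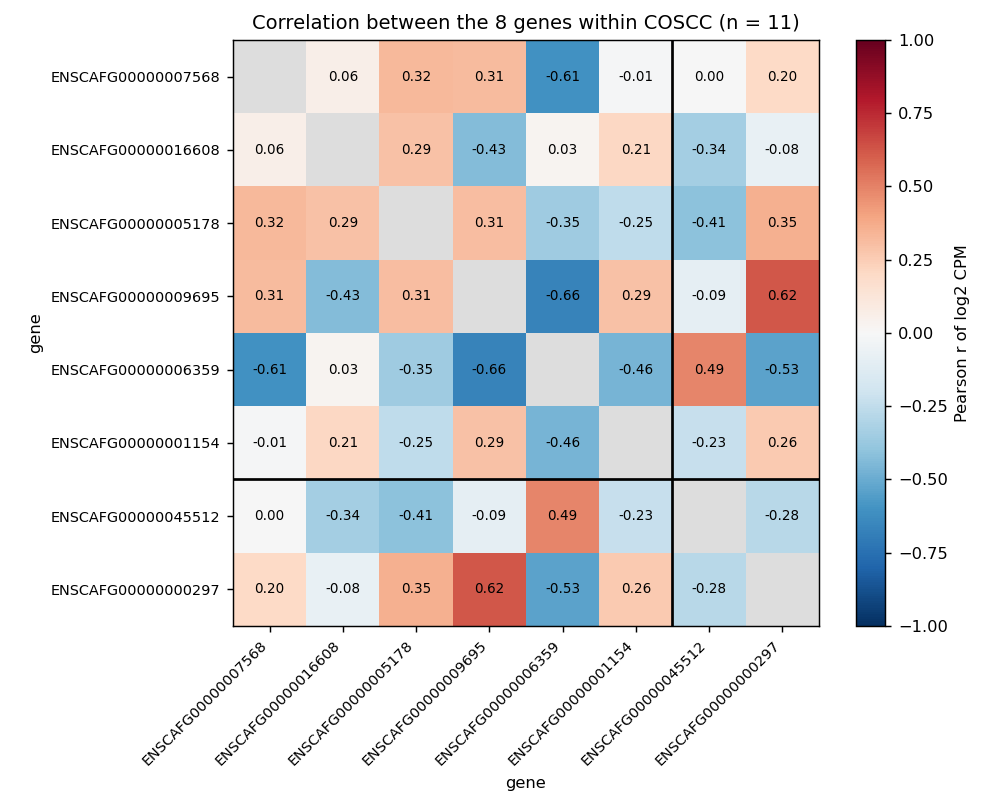
Pearson r of log2 CPM between each pair of the 8 genes across the 11 COSCC libraries, red positive and blue negative, with lines dividing the 6 genes low in COSCC from the 2 high in it. Positive and negative values occur in every block that holds more than 1 pair, from -0.66 to 0.62.

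Within the 7 gingiva libraries the picture was alike. Pearson r ran from -0.82 to 0.54 with a median of -0.04, 13 of 28 pairs were positive, 0 passed after adjustment over the 28 pairs in exact permutation tests, and 1 had an unadjusted p under 0.05. That pair was ENSCAFG00000016608 and ENSCAFG00000045512, with r = -0.82 (exact permutation p = 0.0202, adjusted 0.567) and rho = -0.82 (exact permutation p = 0.0341, adjusted 0.956). It rested on gingiva replicates 1 and 6, without which r was -0.15. In COSCC the same pair had r = -0.34 (permutation p = 0.299, adjusted 0.663) and rho = -0.30 (permutation p = 0.371, adjusted 0.876), and -0.18 without COSCC replicates 1 and 9. The 5 CAA libraries were too few for a correlation.

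Membership among the 8 rested on single libraries to differing degrees. When each of the 23 libraries was left out in turn, ENSCAFG00000007568 passed both thresholds in 22 of 23 fits, ENSCAFG00000005178 in 20, and ENSCAFG00000009695 and ENSCAFG00000016608 in 17. ENSCAFG00000001154 and ENSCAFG00000045512 did so in 13, ENSCAFG00000006359 in 12 and ENSCAFG00000000297 in 11. The weaker side was CAA against gingiva for 7 of them, and COSCC against gingiva for ENSCAFG00000006359. Fewest of the 8, 2, passed both without gingiva replicate 7. Over all genes, 1942 then passed both in any direction, against 2323 with all libraries. Of the 8, 3 passed without CAA replicate 2, 3 or 5 and without gingiva replicate 2, 4, 5 or 6 (1576 to 2105 of all genes). The count was 5 without CAA replicate 1 or gingiva replicate 1 or 3 (1915 to 2709 of all genes). It was 6 without CAA replicate 4 (2069 of all genes). Leaving out a carcinoma kept 6 to 8 of the 8 (2201 to 2414 of all genes). No sign turned in any of these fits, all of which filtered low counts over the 3 groups together. Filtered on only the groups compared, ENSCAFG00000007568 was too low to be tested in COSCC against gingiva and in CAA against COSCC. ENSCAFG00000045512 was then too low to be tested in CAA against gingiva. The place of these genes among the 8 thus also depended on the libraries of the third group.

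The number of genes that met the rule, and how many of the 8 were among them, depended on the test, the scaling and the filter on low counts. DESeq2 found 22 genes displaced in opposite directions, all 8 among them, and limma voom with sample quality weights found 173, with 7 of the 8 among them, while median-of-ratios scaling found 10, again with all 8. With library totals in place of TMM the median of all tested genes' log2 fold changes moved from 0.04 to 0.41 in CAA and from 0.14 to 0.35 in COSCC. Under that scaling 4 genes met the rule, 2 of them from the 8 (ENSCAFG00000007568 and ENSCAFG00000009695). ENSCAFG00000001154 and ENSCAFG00000006359 then had log2 fold changes in COSCC of -0.18 and -0.16 with edgeR adjusted p-values of 0.303 and 0.427. With the maxillary tumors alone 23 genes met the rule, 4 of the 8 among them.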

How the data were processed

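The authors deposited raw counts per gene for 23 libraries, per the file headers, with 0 columns of unknown sample. Directional libraries were made from ribosome-depleted total RNA, per the labels' protocols. STAR and the build canFam3 are listed in the submitters' processing notes; the counting program, annotation release and use of strand are not given in the sources used here, so reads shared by overlapping or near-identical genes could have been split.

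Groups came from sample titles. Counts were fitted with edgeR 4.0.16 (R 4.3.3): filterByExpr by group kept 15716 of 30951 genes with 99.87% of counts, TMM scaling, a mean per group over all 23 libraries, glmQLFit and glmQLFTest, and Benjamini-Hochberg adjustment over all genes tested. Each SE was derived as the absolute log2 fold change over the root of the F statistic. Log2 CPM uses a prior count of 2. Correlations used 100000 permutations (COSCC) or all 5040 (gingiva). Alternatives used DESeq2 1.42.0 and limma 3.58.1. Scripts were tested on simulated data. The genes and tests were chosen with earlier results of these data known. Named beyond the 8 are the 2 genes closest outside the rule and, for each of the 8, the gene most correlated with it. Planned cell type marker lists need symbols and were not used. No batch is given in the labels.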

Additional observations from a re-analysis of the deposited data

Results flagged for a closer look

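A library far from the rest of its group was looked for in 16 sets of CPM values, those of the 8 genes in CAA and in gingiva. A set was listed when the gap to the nearest library, as a share of the range, exceeded Dixon's critical value, which by chance is exceeded in 0.8 of 16 sets on average. The single such set was ENSCAFG00000007568 in gingiva, where replicate 1 stood at 3.27 CPM (50 counts) and the next library at 0.989 CPM. Without gingiva replicate 1 its edgeR log2 fold change was 3.82 in CAA (adjusted p = 0.00761) and -2.91 in COSCC (adjusted p = 0.0123). The 11 COSCC were too many for this rule.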

How the results depend on the processing

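All fold changes of the 8 genes kept their sign under every alternative run, and 0 reversed. Beyond the left-out libraries, 16 of 79 recomputed fold changes in CAA against gingiva, 14 of 79 in COSCC against gingiva and 2 of 79 in CAA against COSCC lost the threshold. The number of the 8 that passed in CAA against gingiva was 4 without a low-count filter (12.7% of the 26982 genes tested passed) and 5 with maxillary tumors only (21.8% of genes). In COSCC against gingiva it was 4 with library totals (35% of genes). When each library was left out it ran from 2 to 8 in CAA against gingiva and from 5 to 8 in COSCC against gingiva, the lowest values being without gingiva replicate 7 (21.8% of genes) and without gingiva replicate 6 (28.9%). In CAA against COSCC it stayed at 8. The share of all genes passing in these fits ran from 14.5% to 27.1%, from 25.7% to 37.8% and from 1.69% to 14.5% in the 3 contrasts. The number of genes displaced in opposite directions, recomputed by a choice made after seeing the data, was 8 with TMM and edgeR, 4 with library totals, 4 without a low-count filter, 22 with DESeq2, 173 with limma voom and 23 with maxillary tumors only. It ran from 2 (without gingiva replicate 7) to 16 (without COSCC replicate 6) when libraries were left out, and the cause was not tested. The labels do not say that a replicate number pairs samples. Same-numbered libraries correlated at -0.17 to 0.14 between CAA and gingiva, -0.24 to 0.27 between COSCC and gingiva and -0.02 to 0.20 between CAA and COSCC, and not every pair exceeded 0.1 in any of the 3. Among the replicate numbers that both groups share, the library of the same number was the best match for 0 of 5, 1 of 7 and 3 of 5. The labels give different breeds to the CAA and COSCC libraries of each shared number, and likewise to the CAA and gingiva libraries. Between COSCC and gingiva the breeds also differ, except for replicates 1 and 5, labelled mixed in both groups. Where breeds differ the number does not mark the same dog, so the replicate block is not a pairing by dog. With the replicate block, 2 of the 8 passed in CAA against gingiva, 3 in COSCC against gingiva and 6 in CAA against COSCC, and 4 genes were displaced in opposite directions; over all genes 3458, 3369 and 154 passed, against 3862, 5290 and 1371 without it. The comparisons of jaw and code and the correlations gave 0 calls among the 8 under all alternatives run, the lowest adjusted p being 0.0512, for a correlation in COSCC without replicate 6. Counts limit ENSCAFG00000007568 and ENSCAFG00000045512, which had at most 5 counts per carcinoma and at most 9 per CAA library, respectively.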

Other observations

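For each of the 8 genes the most alike of the other genes with a mean of at least 1 CPM was sought by Pearson r of log2 CPM, centred within each group, over the 23 libraries (20 residual degrees of freedom). Being the highest of 14300 or so values, these r are descriptions. The closest match was ENSCAFG00000029112 for ENSCAFG00000005178 (r = 0.90), followed by ENSCAFG00000030731 for ENSCAFG00000045512 (0.87) and ENSCAFG00000006160 for ENSCAFG00000016608 (0.81). ENSCAFG00000004407 was nearest to ENSCAFG00000009695 (0.77), ENSCAFG00000042407 to ENSCAFG00000007568 (0.75) and ENSCAFG00000012026 to ENSCAFG00000001154 (0.73). ENSCAFG00000046028 was nearest to ENSCAFG00000000297 (0.69) and ENSCAFG00000017706 to ENSCAFG00000006359 (0.67). The r of ENSCAFG00000042407 with ENSCAFG00000007568 was 0.96 within gingiva but -0.13 within COSCC. In the other pairs r within COSCC ran from 0.61 to 0.92. Of these 8 neighbours, 2 had fold changes of opposite sign in the tumors, as had 26.7% of all genes tested, and 0 passed both thresholds that way, as 0.0509% of all genes did. ENSCAFG00000029112, which followed ENSCAFG00000005178 within COSCC (r = 0.92) and within gingiva (r = 0.82), had means of 10.9 CPM in CAA, 14.7 in gingiva and 6.70 in COSCC. Unlike ENSCAFG00000005178 it was not above gingiva in CAA, with log2 fold changes of -0.42 in CAA (edgeR adjusted p = 0.384) and -1.13 in COSCC (edgeR adjusted p = 0.00457). ENSCAFG00000006160 rose with ENSCAFG00000016608 in CAA (log2 fold change 1.97, edgeR adjusted p = 0.00173), while in COSCC its log2 fold change was 0.45 (edgeR adjusted p = 0.314).

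Levels of the 8 genes across the 11 COSCC were set beside the number of genes with a count, the share of counts in the 10 most abundant genes and the TMM factor of each library, 24 relations chosen after seeing the data. After Benjamini-Hochberg adjustment 0 of the 24 passed 0.05 in permutation tests of Pearson's r, and 2 had an unadjusted p under 0.05, both for ENSCAFG00000005178. Against the share of the 10 most abundant genes it had r = -0.69 (permutation p = 0.0192, adjusted 0.460) and rho = -0.52 (permutation p = 0.107, adjusted 0.722), and r was -0.49 without COSCC replicates 1 and 8. Against the number of genes with a count it had r = 0.61 (permutation p = 0.0486, adjusted 0.571) and rho = 0.49 (permutation p = 0.130, adjusted 0.722), and r was 0.65 without COSCC replicates 3 and 7. The part of library composition in the levels of this gene was not tested further.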
